A study of Rattus norvegicus with 15 samples.

Results

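Glutathione transferases and other enzymes of detoxification were followed through arteries of the rat mesentery, the sheet of tissue that carries vessels to the gut. The group holds 8 genes: the glutathione transferases Gstt1, Gstt2, Gstm1, Gstm2 and Gstp1, the sulfotransferase Sult1a1, the epoxide hydrolase Ephx1 and the cytochrome P450 Cyp2j3. The array measured 4736 named genes. The members were chosen by their signal in earlier results of these arrays: Sult1a1, Gstt2, Ephx1 and Cyp2j3 were low in collateral against control arteries of WKY rats, and Gstt2 also in SHR rats. How Gstt1, Gstm1, Gstm2 and Gstp1 came to be named is not known. They too were named with earlier results in view, so the p-values given for them may be affected by that choice. Every probe set that the platform annotation gives to exactly 1 of these genes was taken, which gave 16 of 8740 probe sets. Of these, 15 passed the filter on low signal, which 6512 probe sets passed in all. The 1 that did not, the Cyp2j3 probe set U40000_at, reached its array's 40th percentile on none of the 15 arrays.

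The arrays cover 2 strains, the spontaneously hypertensive rat (SHR) and WKY, the Wistar-Kyoto strain that usually serves as its normotensive comparison. In both strains control arteries were set against collaterals, vessels made to take over flow by blocking the arteries beside them. There were 3 WKY control, 4 WKY collateral, 4 SHR control and 4 SHR collateral arrays, 1 per sample. No age or time after occlusion is given, nor whether a control and a collateral came from 1 rat. Nothing in the labels ties the samples to separate rats, so the errors and p-values below measure the spread between these samples, and the small number of arrays limits their precision.

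Phase I enzymes such as cytochromes P450 and epoxide hydrolases oxidise or hydrolyse foreign and internal compounds. Phase II enzymes then attach a water-soluble group: glutathione transferases add the peptide glutathione and sulfotransferases add sulfate. Several of these enzymes also act on the vessel's own lipids, since P450 enzymes of the Cyp2j family make epoxides of arachidonic acid that relax arteries, and epoxide hydrolases break epoxides down. Many of the genes are inducible through the transcription factor NRF2, which binds the antioxidant response element, or through the aryl hydrocarbon receptor, which binds the xenobiotic response element.

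All values are log2 of the deposited MAS5 signal, a brightness per probe set on each array, and differences are in log2 units with the standard error (SE) of the fit. Levels are compared only within a probe set. The array SHR collateral 3 stood apart: its Spearman correlations with the other 14 arrays lay between 0.496 and 0.657, against 0.805 to 0.931 among those 14, and 20% of its probe sets lay below 171.2, where the same point was 43.4 to 83.3 elsewhere. Smooth muscle markers were measured on all arrays, with a summed signal of 79841 to 334386 over 8 of 12 genes, and no marker of that list or of the endothelial list was below its array's 20th percentile throughout a group. Markers of liver, gut epithelium and pancreas, tissues rich in such enzymes, had summed signals of 1967 to 11601, 2392 to 4503 and 1136 to 4221 over 12, 8 and 9 genes. Since these were whole vessels, fewer cells of a type cannot be told apart from less RNA per cell.

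Gstt2, a theta class glutathione transferase, kept 1 order of group means in both of its probe sets, highest in WKY control arteries and lowest in SHR collaterals. On the probe set rc_AI138143_at the WKY control arteries read 12.12, 12.07 and 12.53, and the WKY collaterals 11.52, 10.30, 10.06 and 10.63. SHR control arteries read 10.10, 10.58, 11.59 and 10.86, and SHR collaterals 10.07, 8.16, 9.56 and 10.76. The 3 WKY control arrays lay above each of the other 12, while the SHR groups overlapped. Group means were 12.24 ± 0.25 (SD, n = 3), 10.63 ± 0.64 (n = 4), 10.78 ± 0.62 (n = 4) and 9.64 ± 1.10 (n = 4) in the same sequence, so WKY collaterals and SHR control arteries, the neighbours in the middle of the order, differed by less than the spread between their arrays.

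The collateral difference of Gstt2 was -1.61 ± 0.50 (SE) in WKY, 3.06-fold lower, and -1.14 ± 0.46 in SHR, 2.21-fold lower. Both were known when the gene was named and are given as descriptions. Without SHR collateral 2, which had the lowest reading of 8.16, the SHR difference was -0.65, and without SHR collateral 3 it was -1.12. SHR minus WKY was -1.46 ± 0.50 in control arteries and -0.99 ± 0.46 in collaterals. These strain comparisons use the WKY arrays on which the gene was named, so no test is drawn from them. The strain difference in control arteries was below 0 under every one of the 25 processing alternatives that gave a value, from -1.73 to -0.93.

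The second Gstt2 probe set, D10026_s_at, had smaller differences of the same sign. It read 8.83, 9.07 and 9.17 in WKY control arteries and 8.04, 8.71, 8.72 and 8.51 in WKY collaterals, groups that did not overlap, with a difference of -0.53 ± 0.44. In SHR it read 8.41, 8.68, 9.16 and 8.24 against 8.31, 7.98, 6.77 and 8.20, a difference of -0.81 ± 0.41 that became -0.46 without SHR collateral 3. The Pearson correlation of the 2 Gstt2 probe sets over the 15 arrays was 0.61. The suffix _s_at marks probes that can match more than 1 transcript, so related theta class messages may add to this signal.

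Gstt1, the other theta class member, lies close to Gstt2 on chromosome 20, with Gstt4 and the pseudogene Rps28-ps4 between them. Its single probe set read 9.27, 6.45 and 8.43 in WKY control arteries, 6.76, 6.26, 7.12 and 6.07 in WKY collaterals, 8.74, 9.27, 9.09 and 5.29 in SHR control arteries and 8.33, 5.76, 7.13 and 7.31 in SHR collaterals. Each strain's controls held at least 1 array as low as the collaterals, and the groups overlapped. The collateral difference was -1.50 ± 0.90 in WKY and -0.96 ± 0.83 in SHR (limma, unadjusted p = 0.263, adjusted p = 0.949), and the strain difference in control arteries was 0.05 ± 0.90. Without SHR control 4 the SHR difference was -1.90 and without SHR collateral 2 or SHR control 2 it was -0.51 or -0.57, while the WKY difference was -2.30 without WKY control 2 and -0.89 without WKY control 1. The signal was below the array's 20th percentile on 4 of 15 arrays.

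The 2 lowest Gstt1 readings were on arrays with low signal of fat cell genes. The summed signal of 14 adipocyte markers was 11622 on SHR control 4, against 101364, 34492 and 85518 on the other SHR control arrays. It was 13043 on SHR collateral 2, against 53249, 26012 and 63075 on the other SHR collaterals. These 2 arrays had the lowest Gstt1 readings. Similar or lower sums were found on WKY collateral 3 (13077) and WKY collateral 4 (9139), where Gstt1 read 7.12 and 6.07. WKY control 2, where Gstt1 read 6.45, had a sum of 31565, between 14613 and 51003 on the other WKY control arrays. Over all 5259 tested probe sets with 1 gene symbol outside the group, those most like Gstt1 were Acsl1, which activates fatty acids and is itself in the adipocyte list, at a Pearson correlation of 0.79 over 15 arrays and 0.84 without SHR collateral 3, Xdh, xanthine dehydrogenase, at 0.79 and 0.82, and the glutamine synthetase Glul at 0.77 and 0.79. The points share arrays and their scaling, and the correlations are descriptions.

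**Figure D1:**
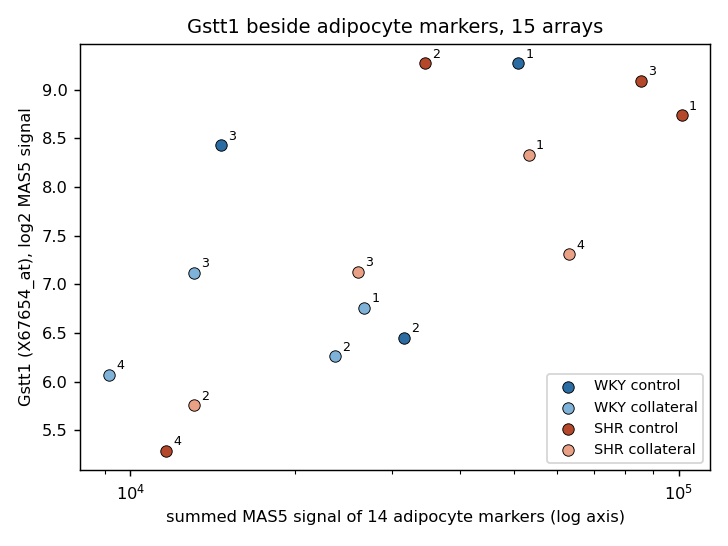
Log2 MAS5 signal of Gstt1 (vertical axis) against the summed MAS5 signal of 14 adipocyte markers (horizontal log axis), 1 point per array, coloured by group and numbered by replicate. SHR control 4, at 5.29, and SHR collateral 2, at 5.76, sit at the lower left, and WKY control 3 combines a Gstt1 reading of 8.43 with a marker sum of 14613.

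Adipocyte markers also differed between the groups being compared. Of the 12 tested markers, 12 were below 0 in WKY collaterals against control arteries, with a median difference of -0.82, and 8 in SHR, with a median of -0.25. The summed signal of the list ranged from 14613 to 51003 in WKY control arteries, 9139 to 26721 in WKY collaterals, 11622 to 101364 in SHR control arteries and 13043 to 63075 in SHR collaterals, with Plin1 below the 20th percentile throughout every group other than SHR controls. Fibroblast markers were below 0 for 10 of 10 tested genes in both strains (9 and 8 with quantile normalization), with medians of -0.39 in WKY and -0.61 in SHR. The fibroblast sums were 368215 to 451567 and 301511 to 379656 in WKY control and collateral arteries, and 353372 to 537133 and 266093 to 437688 in SHR. The part of either cell type in the differences of the detoxification genes was not tested.

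Sult1a1, which adds sulfate to phenols, catechols and some steroid-like compounds, was lower in WKY collaterals on both of its probe sets, which were designed on the same sequence. L19998_g_at read 11.82, 11.45 and 11.71 in WKY control arteries and 10.43, 10.58, 10.13 and 9.08 in WKY collaterals, with no overlap and a difference of -1.60 ± 0.47, 3.04-fold lower. L19998_at read 11.79, 11.26 and 11.94 against 9.86, 9.81, 10.003 and 8.59, a difference of -2.10 ± 0.79. These WKY values named the gene and are descriptions.

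In SHR the picture for Sult1a1 depended on the probe set and on single arrays. L19998_g_at read 10.02, 12.08, 11.88 and 11.83 in control arteries and 10.66, 10.16, 11.04 and 11.71 in collaterals, a difference of -0.56 ± 0.44 (limma, unadjusted p = 0.218, adjusted p = 0.949). SHR control 1 was the low array of its group, and without it the difference was -1.04. L19998_at read 9.35, 12.20, 11.58 and 11.64 in control arteries and 9.59, 8.37, 7.09 and 11.65 in collaterals, a difference of -2.02 ± 0.73 (limma, unadjusted p = 0.0125, adjusted p = 0.949), and -1.32 without SHR collateral 3. The SD of L19998_at was 1.26 and 1.94 in SHR control and collateral arteries, and 0.36 and 0.66 in the WKY ones. The fit pools all 4 groups, so the SHR p-values of Sult1a1 rest partly on the WKY arrays that named the gene. Every SHR collateral lay within the range of the control arteries on L19998_g_at, and SHR collaterals 1 and 4 did on L19998_at. The 2 probe sets correlated at 0.76 over 15 arrays and 0.94 without SHR collateral 3, the array on which they differed most.

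Strain differences in Sult1a1 had no settled sign. In control arteries they were -0.21 ± 0.47 on L19998_g_at and -0.47 ± 0.79 on L19998_at, and both were above 0, at 0.27 and 0.15, without SHR control 1. In collaterals they were 0.84 ± 0.44 and -0.39 ± 0.73, and the second was 0.30 without SHR collateral 3. Group means on L19998_g_at were 11.66 ± 0.19 (SD, n = 3) in WKY control, 11.45 ± 0.96 (n = 4) in SHR control, 10.89 ± 0.66 (n = 4) in SHR collateral and 10.06 ± 0.68 (n = 4) in WKY collateral arteries, and of these neighbours only SHR and WKY collaterals differed by more than the larger SD, although their arrays overlapped.

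Ephx1, microsomal epoxide hydrolase, opens reactive epoxides with water. Its probe set read 10.24, 9.57 and 9.24 in WKY control arteries and 8.79, 8.15, 6.89 and 8.68 in WKY collaterals, with no overlap and a difference of -1.56 ± 0.49, 2.94-fold lower, a description. SHR control arteries read 9.29, 9.61, 10.73 and 9.60 and SHR collaterals 9.46, 8.37, 9.22 and 9.49, which overlapped. The SHR difference was -0.67 ± 0.45 (limma, unadjusted p = 0.156, adjusted p = 0.949), with a 95% interval of -1.62 to 0.28, and was -0.36 without SHR control 3. In control arteries the strains differed by 0.12 ± 0.49, and in collaterals SHR was higher by 1.01 ± 0.45, again a comparison with the arrays on which the gene was named.

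Cyp2j3, an epoxygenase of the Cyp2j family, had the most negative difference of the lead probe sets (the brightest of each gene) in WKY. U40004_s_at read 9.10, 8.96 and 8.39 in WKY control arteries and 6.17, 7.24, 6.99 and 8.31 in WKY collaterals, separated by 0.08 between the nearest arrays, with a difference of -1.64 ± 0.56, 3.12-fold lower. In SHR it read 8.0035, 9.45, 9.18 and 8.65 in control arteries and 7.32, 7.79, 9.0045 and 7.98 in collaterals, a difference of -0.80 ± 0.52 (limma, unadjusted p = 0.140, adjusted p = 0.949; 95% interval -1.88 to 0.29). SHR collateral 3 was the high array of its group, and without it the difference was -1.12. The dimmer probe set U39943_s_at, below the 20th percentile on 6 of 15 arrays, gave -0.04 ± 0.93 in WKY and 0.12 ± 0.86 in SHR (-0.21 with quantile normalization), and correlated with U40004_s_at at 0.27. With the mean over the gene's probe sets the WKY difference was -0.84. Both are _s_at probe sets, so related transcripts may add to their signal, and the WKY difference of Cyp2j3 rests on U40004_s_at.

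**Figure D2:**
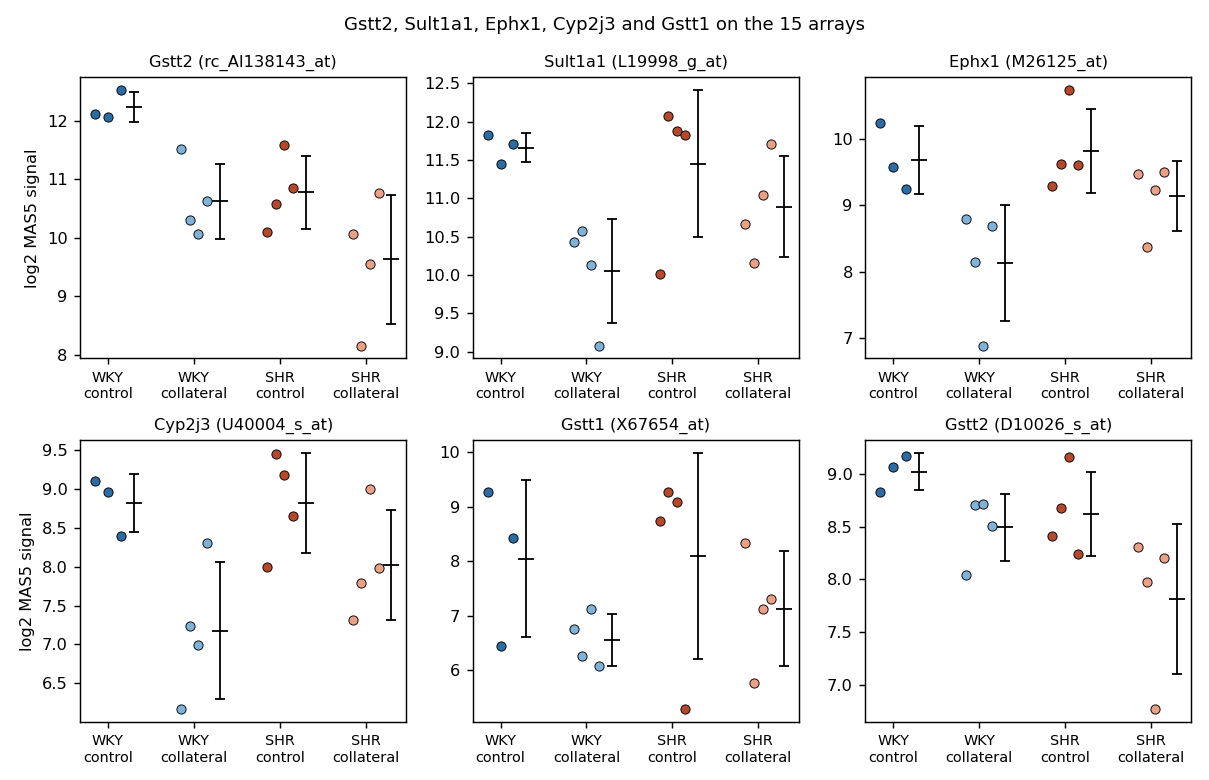
Log2 MAS5 signal (vertical axes) of 6 probe sets of Gstt2, Sult1a1, Ephx1, Cyp2j3 and Gstt1 in the 4 groups; points are arrays, and the bar to the right of each group is its mean ± SD. WKY collaterals lie below WKY controls without overlap in all panels other than that of Gstt1, and SHR collaterals overlap SHR controls in all 6.

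Side by side, 14 of the 15 tested probe sets were below 0 in WKY collaterals, with a median over the 8 lead probe sets of -1.53, while all 6512 had a median of 0.003. Complete separation downward was seen for 6 of the 15, against 3.09% of all tested probe sets, of which 1.41% were lower and 1.75% higher at an unadjusted p under 0.05, and nothing is read from that count because this comparison named the genes. The SHR differences share no arrays with that comparison. Their SEs and p-values, however, use a spread fitted over all 15 arrays, including the WKY arrays that named 4 of the genes. Gstt2 was known to be low in SHR too, so its 2 probe sets are left out of the SHR counts. Of the other 13, 10 were below 0, and so were the lead probe sets of the other 7 genes, with a median of -0.56 against 0.06 over all probe sets, of which 45.2% were below 0. Of those 7, 5 were below 0 without SHR control 3, where Gstm1 was 0.14 and Gstm2 0.033, 6 without SHR collateral 4, where Gstm2 was 0.024, and 6 with the mean over each gene's probe sets. Sult1a1 L19998_at was the 1 of 13 with an unadjusted p under 0.05 in the lower direction, against 1.69% of all probe sets, and 0 of 13 were completely separated downward, against 0.814%. After adjustment limma called 0 of the 13 and 0.0% of all probe sets in SHR, where 245 had an unadjusted p under 0.05. In WKY it likewise called 0.0% of all, with 206 at an unadjusted p under 0.05.

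The difference between the strains in these collateral changes, SHR minus WKY, was 1.04 ± 0.64 for Sult1a1 (L19998_g_at), 0.88 ± 0.67 for Ephx1, 0.84 ± 0.76 for Cyp2j3, 0.54 ± 1.23 for Gstt1, 0.47 ± 0.68 for Gstt2 and -0.30 ± 0.45 for Gstm1. Leaving out 1 array gave from 0.57 to 1.29 for Sult1a1, 0.47 to 1.19 for Ephx1, 0.51 to 1.22 for Cyp2j3, -0.40 to 1.34 for Gstt1, 0.096 to 0.96 for Gstt2 and -0.46 to -0.0077 for Gstm1. The sign of Gstt1 turned without SHR control 4 (-0.40) or WKY control 1 (-0.076), Gstt2 was lowest without SHR collateral 4, and Gstm1 was nearest to 0 without SHR control 3. This difference holds the WKY comparison that named 4 of the genes, so it is given without a test.

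**Figure D3:**
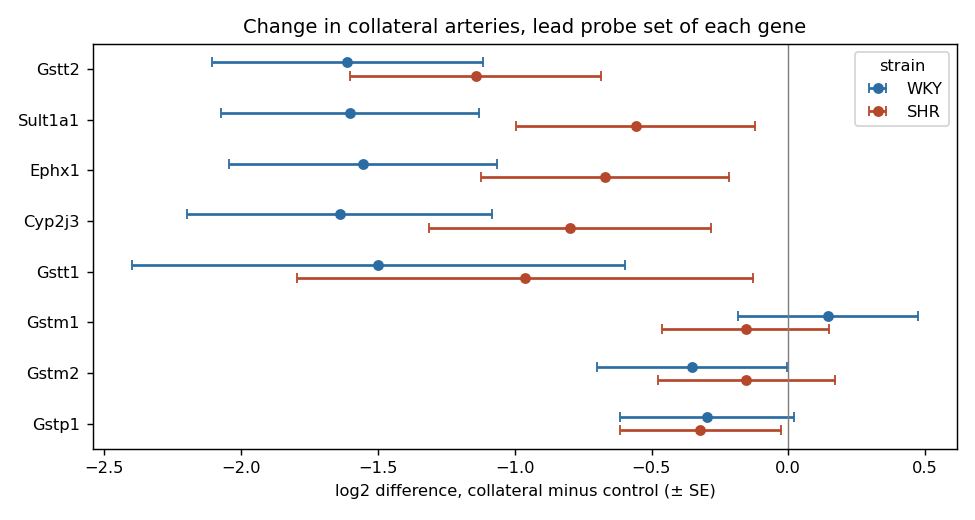
Log2 difference between collateral and control arteries (horizontal axis, point ± SE) for the lead probe set of each of the 8 genes, WKY in blue and SHR in red. Gstt2, Sult1a1, Ephx1, Cyp2j3 and Gstt1 lie between -1.64 and -1.50 in WKY and between -1.14 and -0.56 in SHR, while Gstm1, Gstm2 and Gstp1 lie between -0.35 and 0.15 in both.

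Averaged over Gstt1, Gstt2, Sult1a1, Ephx1 and Cyp2j3 after centring each gene on its mean over the 15 arrays, the WKY control arrays stood at 1.22, 0.41 and 0.77 and the WKY collaterals at -0.55, -0.78, -1.05 and -0.73. All of these genes other than Gstt1 were named by the WKY comparison, and Gstt1 also had a negative difference in it. The WKY split of the average was thus fixed beforehand, and nothing is read from it. SHR control arrays stood at -0.06, 0.91, 1.20 and -0.04, and SHR collaterals at -0.12, -1.24, -0.10 and 0.16. The SHR groups thus overlapped, with SHR collateral 2 far below the other 3 collaterals and SHR controls 1 and 4 level with them.

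The start regions of these genes are shown for the 2 elements through which such enzymes are often induced. Each line gives 300 bases of the gene's strand, 250 before and 50 after a RefSeq start on GRCr8; capitals mark matches, on either strand, to TGACNNNGC (the core of the antioxidant response element) or GCGTG (the core of the xenobiotic response element). Of the 8 genes, 6 had an entry, with 7 start regions in all. Gstt1 and Gstt2 are among the genes named only.
Gstp1 (chr1:210769656-210769955, minus strand): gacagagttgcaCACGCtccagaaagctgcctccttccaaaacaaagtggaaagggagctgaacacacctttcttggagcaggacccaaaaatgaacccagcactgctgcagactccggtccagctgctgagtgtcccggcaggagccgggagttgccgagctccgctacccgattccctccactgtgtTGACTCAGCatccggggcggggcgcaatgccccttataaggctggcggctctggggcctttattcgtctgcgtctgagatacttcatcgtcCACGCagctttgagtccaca
Ephx1, second start (chr13:95263068-95263367, minus strand): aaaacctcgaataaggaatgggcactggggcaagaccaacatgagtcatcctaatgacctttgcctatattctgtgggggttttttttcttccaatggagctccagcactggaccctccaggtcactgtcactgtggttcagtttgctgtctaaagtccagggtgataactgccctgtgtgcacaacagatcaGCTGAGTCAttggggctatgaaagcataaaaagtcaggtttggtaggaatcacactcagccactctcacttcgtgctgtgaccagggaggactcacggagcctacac
Ephx1, first start (chr13:95275803-95276102, minus strand): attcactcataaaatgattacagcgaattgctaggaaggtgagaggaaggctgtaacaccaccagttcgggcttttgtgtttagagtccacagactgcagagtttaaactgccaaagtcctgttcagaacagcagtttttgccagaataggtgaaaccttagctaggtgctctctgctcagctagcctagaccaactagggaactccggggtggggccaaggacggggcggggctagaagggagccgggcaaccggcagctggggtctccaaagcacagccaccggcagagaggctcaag
Sult1a1 (chr1:190706063-190706362, minus strand): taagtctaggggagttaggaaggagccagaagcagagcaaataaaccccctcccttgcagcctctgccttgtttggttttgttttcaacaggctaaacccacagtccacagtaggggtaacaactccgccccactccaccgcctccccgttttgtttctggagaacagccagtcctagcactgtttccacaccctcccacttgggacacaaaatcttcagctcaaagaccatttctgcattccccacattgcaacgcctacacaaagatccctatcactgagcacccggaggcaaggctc
Cyp2j3 (chr5:116360450-116360749, minus strand): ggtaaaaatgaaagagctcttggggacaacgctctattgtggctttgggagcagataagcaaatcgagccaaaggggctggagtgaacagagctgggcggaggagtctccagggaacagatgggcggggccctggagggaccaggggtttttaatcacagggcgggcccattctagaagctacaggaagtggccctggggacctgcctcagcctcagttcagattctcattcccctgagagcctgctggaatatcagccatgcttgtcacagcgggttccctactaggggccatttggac
Gstp1 held TGACTCAGC from 61 to 53 bases before its start, on the strand shown. It also held CACGC, the reverse complement of GCGTG, from 238 to 234 bases before and from 30 to 34 bases after that start. Ephx1 held GCTGAGTCA, the reverse orientation of the first motif, from 57 to 49 bases before its second start. The other start regions shown, and those of Gstm1 and Gstm2, held neither. Of 33469 rat start regions of the same length, 12.06% held the first motif and 29.7% the second, and a match is a description of the letters only.

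Gstm1 and Gstm2, neighbouring genes on chromosome 2 with no gene between them, encode mu class glutathione transferases, which are abundant in many tissues. Gstm1 was higher in SHR than in WKY arteries of both kinds on its brightest probe set and differed little between vessel types. J02810mRNA_s_at read 9.68, 10.26 and 9.87 in WKY control arteries and 10.63, 10.69, 11.81 and 10.58 in SHR control arteries, so that every SHR array was above every WKY array. The difference was 0.99 ± 0.33 (SE), 1.98-fold, with a 95% interval of 0.30 to 1.68 (limma, unadjusted p = 0.00761, adjusted p = 0.498). SHR control 3 was far above the rest, and without it the difference was 0.69.

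In collaterals the same Gstm1 probe set read 9.68, 10.23, 10.45 and 9.98 in WKY and 10.83, 10.79, 11.03 and 10.43 in SHR, with an overlap of 1 SHR array and 1 WKY array by 0.02. The difference was 0.68 ± 0.30 (limma, unadjusted p = 0.0371, adjusted p = 0.635). Across vessel types Gstm1 differed by 0.15 ± 0.33 in WKY, with a 95% interval of -0.54 to 0.84, and by -0.16 ± 0.30 in SHR (-0.80 to 0.48). Group means were 10.93 ± 0.59 (SD, n = 4) in SHR control, 10.77 ± 0.25 (n = 4) in SHR collateral, 10.08 ± 0.33 (n = 4) in WKY collateral and 9.94 ± 0.30 (n = 3) in WKY control arteries, and the vessel types of a strain were neighbours that differed by less than their spread.

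The other Gstm1 probe sets had strain differences of the same sign with larger errors. X04229cds_s_at gave 0.96 ± 0.55 in control arteries (limma, unadjusted p = 0.101) and 0.71 ± 0.51 in collaterals, reading 7.01 to 8.40 in WKY controls and 7.80 to 9.57 in SHR controls. H32189_s_at gave 0.21 ± 0.77 and 0.85 ± 0.71, and its control difference changed sign when WKY control 1 (-0.02) or SHR control 4 (-0.16) was left out. The 3 probe sets correlated between -0.04 and 0.37 over the 15 arrays. Without SHR collateral 3, J02810mRNA_s_at and X04229cds_s_at correlated at 0.53, and H32189_s_at with them at 0.16 and 0.14.

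Gstm2 differences between the strains had the same sign, but single arrays set their size. J02592_s_at read 10.38, 9.37 and 10.36 in WKY controls against 10.24, 10.57, 11.06 and 10.13 in SHR controls, a difference of 0.46 ± 0.35 (limma, unadjusted p = 0.204), which was 0.13 without WKY control 2 and 0.27 without SHR control 3. In collaterals it read 10.05, 9.53, 9.64 and 9.53 in WKY and 10.22, 10.46, 10.89 and 9.81 in SHR, with SHR higher by 0.66 ± 0.32 (limma, unadjusted p = 0.0565, adjusted p = 0.647), and by 0.48 without SHR collateral 3. Only SHR collateral 4 lay within the WKY range. The second probe set, J03914cds_s_at, gave 0.38 ± 0.37 and 0.44 ± 0.35, and the 2 correlated at 0.67. Mu class messages are alike in sequence, and both are _s_at probe sets, so the members of the class may share signal.

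Gstp1, the pi class transferase, gave different answers on its 2 probe sets. The bright one, rc_AI012589_s_at, read 11.57, 10.98 and 11.07 in WKY controls, 10.99, 10.62, 10.84 and 11.18 in WKY collaterals, 11.30, 11.32, 11.60 and 10.70 in SHR controls and 11.04, 11.39, 10.11 and 11.09 in SHR collaterals. All groups overlapped, and strain differences were 0.02 ± 0.32 in controls (95% interval -0.64 to 0.69) and -0.001 ± 0.29 in collaterals (-0.62 to 0.62). The dim one, X02904cds_s_at, read 6.41, 7.04 and 6.82 in WKY controls and 8.75, 8.54, 8.43 and 7.36 in SHR controls, with no overlap and a difference of 1.51 ± 0.67 (limma, unadjusted p = 0.0367, adjusted p = 0.728). In collaterals it read 7.58, 6.54, 7.42 and 5.24 in WKY and 7.28, 9.68, 9.24 and 8.19 in SHR, a difference of 1.90 ± 0.62 (limma, unadjusted p = 0.00672, adjusted p = 0.517).

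The 2 Gstp1 probe sets correlated at -0.02 over the 15 arrays and 0.34 without SHR collateral 3, and a strain difference for the gene therefore rests on the dim probe set alone. Between vessel types the bright one differed by -0.30 ± 0.32 in WKY and -0.32 ± 0.29 in SHR (limma, unadjusted p = 0.288), and the dim one by -0.06 ± 0.67 and 0.33 ± 0.62 (-0.46 with array weights).

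**Figure D4:**
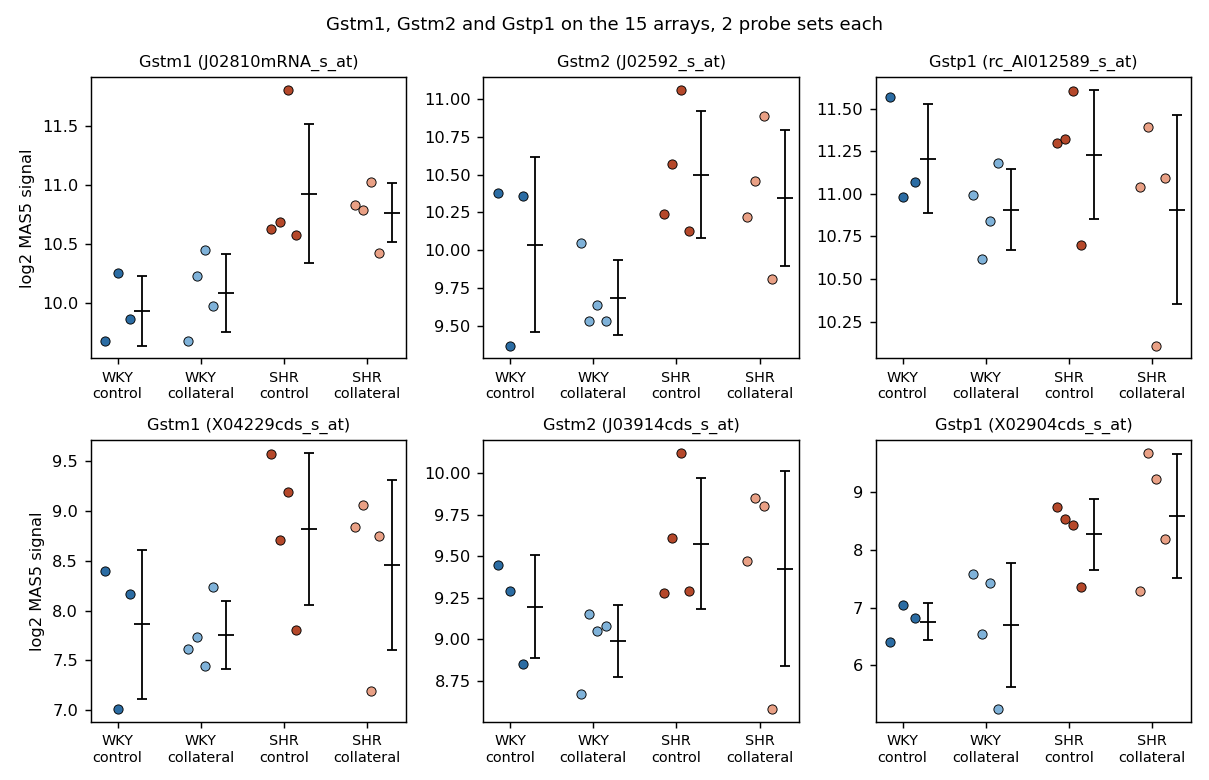
Log2 MAS5 signal (vertical axes) of 2 probe sets each of Gstm1, Gstm2 and Gstp1 in the 4 groups; points are arrays, and the bar to the right of each group is its mean ± SD. SHR control arrays of Gstm1 J02810mRNA_s_at (10.58 to 11.81) and Gstp1 X02904cds_s_at (7.36 to 8.75) lie above all WKY control arrays, and the bright Gstp1 probe set shows no such split.

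For the strains, counts are given over the 8 probe sets of Gstt1, Gstm1, Gstm2 and Gstp1, leaving out the 4 genes named on the WKY arrays. The genes counted may themselves have been named for differences seen in these arrays, so the counts are descriptions. In control arteries 0 of 8 were lower in SHR and 2 (Gstm1 J02810mRNA_s_at and Gstp1 X02904cds_s_at) were higher at an unadjusted p under 0.05, against 2.75% and 3.72% of all tested probe sets. These 2 were also the ones whose strains did not overlap, against 3.72% lower and 4.85% higher of all. limma called 0 of 8 after adjustment and 0.0307% of all probe sets. In collaterals 0 of 8 were lower and the same 2 were higher at an unadjusted p under 0.05, against 3.61% and 4.01%; 0 of 8 had groups that did not overlap, against 1.55% and 2.07%, and limma called 0 of 8 after adjustment and 0.0% of all. All tested probe sets had a median of 0.12 in SHR against WKY collaterals, so small positive differences there stand against that shift; giving every array the same median moved this comparison by a median of -0.24 and SHR collateral against control by -0.18, and left Gstm1 J02810mRNA_s_at at 0.45 in collaterals.

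Other measures also separated the strains. The log2 signal of 3' probe sets minus that of 5' ones, averaged for actin and Gapdh as a measure of RNA integrity, was 2.10 to 2.62 in WKY collaterals and 1.64 to 2.06 in SHR collaterals, which did not overlap, and 2.07 to 2.38 and 1.71 to 2.31 in the controls, which did. Macrophage markers were higher in SHR for 4 of 5 tested genes in controls (median 0.76) and 5 of 5 in collaterals (median 1.38; 4 of 5 with a median of 0.93 without SHR collateral 3). Their sums over 7 of 12 genes were 3468 to 6161 in WKY control, 4872 to 19188 in WKY collateral, 5542 to 42674 in SHR control and 16277 to 29214 in SHR collateral arteries, with Itgam below the 20th percentile throughout every group other than SHR controls. Other lists differed as well in SHR against WKY collaterals: adipocyte markers were higher for 9 of 12 (median 0.77), nerve and Schwann cell markers for 7 of 8 (0.63), lymphocyte markers for 4 of 5 (0.74; 0.23 without SHR collateral 3) and mast cell markers for 5 of 5 (0.79; 0.27 without that array). Smooth muscle markers were lower for 7 of 8 (-0.73; 6 of 8 and -0.19 without that array). In control arteries the nerve list was higher for 6 of 8 (0.47), the mast cell list for 4 of 5 (0.60) and the adipocyte list for 8 of 12 (0.18), and the smooth muscle list lower for 6 of 8 (-0.24). Nerve marker sums over 8 of 10 genes were 7937 to 10976 and 11358 to 17920 in WKY and SHR controls, which did not overlap, and 8047 to 13206 and 10175 to 16451 in collaterals. Endothelial sums over 10 of 14 genes were 7502 to 9894 and 5178 to 5855 in WKY and SHR controls, which did not overlap either. In collaterals they were 5001 to 12544 and 3762 to 10438. By sign 5 endothelial markers were lower and 5 higher in SHR controls (median -0.33), and limma called 1 after adjustment. Mast cell sums over 9 of 10 genes were 2975 to 4545 and 4458 to 7521 in controls and 2450 to 4405 and 3836 to 9058 in collaterals, with Mcpt1 below the 20th percentile throughout SHR collaterals. The part of these measures in the strain differences of Gstm1, Gstm2 and Gstp1 was not tested.

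Other glutathione transferases on the array leaned towards SHR as well. Of 11 tested genes, 10 were higher in SHR in control arteries, with a median of 0.45, and 10 in collaterals, with a median of 0.68, against medians of 0.02 and 0.12 over all probe sets. With equal array medians 8 and 9 were higher, with medians of 0.41 and 0.44, and without SHR collateral 3 the collateral median was 0.50. In 3 of the genes the SHR control arrays lay wholly above the WKY ones, against 4.85% of all tested probe sets. In collaterals that held for 0 genes, against 2.07%. None passed adjustment with limma. At an unadjusted p under 0.05, 1 and 2 were higher in control arteries and collaterals, against 3.72% and 4.01% of all. In control arteries that was Hpgds, the prostaglandin D synthase of the sigma class, which read 7.20 to 7.83 in SHR and 4.44 to 6.82 in WKY. The difference was 1.77 ± 0.75 (limma, adjusted p = 0.692). The lowest WKY reading, 4.44, was below its array's 20th percentile, so a signal near background limits this difference. In collaterals the 2 were the microsomal Mgst2, higher by 0.68 ± 0.30, and the alpha class Gsta1, higher by 1.05 ± 0.48. For collateral against control the list had medians of -0.25 in WKY and -0.05 in SHR, with Gsta1 at -1.25 ± 0.52 in WKY. The Gsta1 values are those of X78848cds_f_at, the brightest of 3 tested probe sets of that gene, and its others are not given here.

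Genes of glutathione synthesis and use showed no common direction, with 11 tested and medians of -0.12, 0.10, -0.03 and 0.23 in WKY collateral against control, SHR collateral against control, SHR against WKY controls and SHR against WKY collaterals, the last of which was -0.15 without SHR collateral 3. Dpep1, a dipeptidase that helps to break down glutathione products outside the cell, read 6.86 to 7.95 in WKY collaterals and 8.63 to 9.22 in WKY controls, a difference of -1.48 ± 0.51, against 0.36 ± 0.47 in SHR. Gpx1, which reduces hydrogen peroxide with glutathione, read 11.88 to 13.66 in SHR collaterals and 13.81 to 14.11 in WKY collaterals, with a difference of -0.83 ± 0.31 (limma, adjusted p = 0.557).

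Among 47 other enzymes of oxidation and hydrolysis, 28 were lower in WKY collaterals and 23 in SHR collaterals, with medians of -0.10 and 0.06, and without SHR collateral 3 the SHR count was 34 and the median -0.19. Aldh2, the mitochondrial aldehyde dehydrogenase, was at -0.65 ± 0.31 in WKY and -0.53 ± 0.28 in SHR, and Xdh at -0.80 ± 0.36 and -0.68 ± 0.34. Aldh1a2 went the other way in WKY collaterals, at 1.52 ± 0.61, and Cyp2c11 in SHR collaterals, at 1.27 ± 0.54. Of the 47, 2 were lower and 1 higher in WKY at an unadjusted p under 0.05 (limma), and 1 and 1 in SHR. Over all tested probe sets the shares were 1.41% and 1.75% in WKY, and 1.69% and 2.07% in SHR. Between strains, the flavin monooxygenase Fmo1 was higher in SHR by 2.15 ± 0.66 in control arteries, reading 8.82 to 10.48 against 6.55 to 8.21, and by 2.34 ± 0.61 in collaterals (limma, adjusted p = 0.412 and 0.266). Aldh1a2 was higher in SHR control arteries by 2.05 ± 0.61 (limma, adjusted p = 0.412), reading 7.47 to 9.57 against 6.02 to 8.02, which overlapped. The 16 other conjugation enzymes had medians of -0.07 and 0.25 for collateral against control in WKY and SHR, the latter 0.07 with equal array medians and 0.12 without SHR collateral 3, and -0.03 and 0.34 for SHR against WKY in control and collateral arteries, the last of which was -0.04 without SHR collateral 3.

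Of 19 tested NRF2 target genes, 16 were higher in SHR than in WKY controls (median 0.29) and 12 in collaterals (median 0.14, and -0.10 with equal array medians), while collateral against control gave medians of 0.05 in WKY and 0.01 in SHR. This list shares genes with the lists above, such as Mgst1, Gsta3, Gclm, Gsr and Ugdh, so its counts are not separate from theirs. Hmox1, haem oxygenase 1, which is also made by macrophages, read 10.48 to 11.95 in SHR controls and 9.10 to 9.66 in WKY controls, a difference of 1.87 ± 0.46, and was higher by 1.69 ± 0.43 in SHR collaterals (limma, adjusted p = 0.176 and 0.226). The NRF2 gene itself, Nfe2l2, had a difference of -1.30 ± 0.57 between SHR and WKY collaterals (limma, adjusted p = 0.629). The 13 xenobiotic sensors and regulators and 10 efflux transporters had 0 adjusted calls with limma in any comparison. At an unadjusted p under 0.05 each list had 0 to 1 in each direction, against 0.676% to 4.01% of all tested probe sets. Their medians lay between -0.37 and 0.39 and between 0.01 and 0.10. The highest of each, for SHR against WKY collaterals, became 0.15 and -0.14 with equal array medians and 0.0 and -0.21 without SHR collateral 3.

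By likeness over the arrays, the members had different companions. Gstt2 was most like Slfn5, with a Pearson correlation of 0.87 over 15 arrays and 0.86 without SHR collateral 3. Gstm1 was most like Gas7 on both of that gene's probe sets, at 0.92 and 0.90, and then Coro1b, an actin-binding coronin, at 0.88. Gstm2 was most like Nbl1 (0.84), Fxyd1 (0.86) and the cytochrome b5 reductase Cyb5r3 (0.84), and Gstp1 like Fcgrt (0.88), Cox6b1 (0.80) and the collagen gene Col1a1 (0.80). Sult1a1 was nearest to Scfd2, Ldhb and a probe set of Dpep1, between 0.785 and 0.794, Ephx1 to S100a1 (0.86), and Cyp2j3 to the protease inhibitor Serpine2 (0.77). All of these were chosen as the highest of 5259 candidates and are descriptions.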

How the data were processed

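Total RNA of mesenteric arteries was purified with a fibrous tissue kit and labelled with biotin, per the labels' protocols. Per the submitters' processing notes, the authors computed the deposited signal with GCOS and MAS5, giving each probe set 1 value an array, and the mean after trimming 2% was close to 1001 on every array, so each array had been scaled. No version is stated. Such scaling assumes like amounts of RNA per array.

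Log2 was taken after a floor of 1 (12 values). Of 8799 probe sets, 59 array controls were set aside, and a probe set needed 3 or more arrays at or above the 40th percentile of signal to be tested. Gene names are those of the platform annotation; 6994 symbols matched a gene table by identifier and 0 differed. Group means were fitted with limma 3.58.1 (R 4.3.3; lmFit, eBayes with a trend, all 15 arrays, 11 residual and 7.19 prior degrees of freedom), with Benjamini-Hochberg adjustment over 6512 probe sets at 0.05, checked on simulated data. Promoter windows are RefSeq's, on GRCr8.

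The members and all lists were chosen with earlier results of these data known. Named were all members, the brightest probe set leading, a few of the related genes with the smallest p per list, and the 3 probe sets most like each member. The closing section gives the alternatives.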

Additional observations from a re-analysis of the deposited data

Results flagged for a closer look

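Of 45 groups of 4 arrays examined over the members' tested probe sets, 5 held an array far from the other 3 (by Dixon's gap test), where chance gives about 1 in 20 groups, or 2.25. Gstm1 (J02810mRNA_s_at) was highest on SHR control 3 at 11.81, against 10.58 to 10.69 on the others. Gstm1 (X04229cds_s_at) was lowest on SHR collateral 3, the array that stood apart as a whole, at 7.19 against at least 8.75. Sult1a1 was lowest on SHR control 1 with L19998_g_at, at 10.02 against at least 11.83, and on WKY collateral 4 with L19998_at, at 8.59 against at least 9.81. Gstt1 was lowest on SHR control 4, at 5.29 against at least 8.74. The cause of these readings was not tested.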

How the results depend on the processing

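There were 25 alternatives, 15 of which left out 1 array each. No member was called after adjustment in any comparison under the main setting or any alternative. Of 1830 member values recomputed, 1717 kept their sign and 113 changed it, 75 of these when 1 array was left out. By comparison, 15, 26 and 10 changed in SHR collateral against control and in SHR against WKY control and collateral arteries, and 16 and 46 in the comparisons without tests, WKY collateral against control and the difference between the strains. In WKY these were Gstm1, Gstp1 X02904cds_s_at and Cyp2j3 U39943_s_at values. The cause of these changes was not tested. The ranges that follow are only over the fits that left out 1 array. Over all 25 alternatives, the strain difference of Gstp1 rc_AI012589_s_at ran from -0.10 to 0.77 in control arteries and from -0.24 to 0.95 in collaterals. For SHR collateral against SHR control, the ranges were Gstm1 H32189_s_at from -0.12 to 1.05, Gstm2 J02592_s_at from -0.33 to 0.033, Gstm1 J02810mRNA_s_at from -0.27 to 0.14, Gstm2 J03914cds_s_at from -0.29 to 0.13, Cyp2j3 U39943_s_at from -0.41 to 0.53, Gstp1 X02904cds_s_at from -0.033 to 0.77 and Gstm1 X04229cds_s_at from -0.70 to 0.069. For SHR against WKY in control arteries, the ranges were Gstm1 H32189_s_at from -0.16 to 0.63, Sult1a1 L19998_at from -0.80 to 0.15, Sult1a1 L19998_g_at from -0.42 to 0.27, Ephx1 M26125_at from -0.18 to 0.40, Gstp1 rc_AI012589_s_at from -0.10 to 0.21, Cyp2j3 U39943_s_at from -0.71 to 0.64, Cyp2j3 U40004_s_at from -0.21 to 0.27 and Gstt1 X67654_at from -0.75 to 0.98. For SHR against WKY in collateral arteries, the ranges were Sult1a1 L19998_at from -1.22 to 0.30, Gstp1 rc_AI012589_s_at from -0.16 to 0.27 and Cyp2j3 U39943_s_at from -0.39 to 0.81.

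Among the other alternatives, SHR collateral against control became 0.0028 for Gstp1 after averaging the probe sets of a gene, -0.21 and -0.065 for Cyp2j3 U39943_s_at with quantile normalization and equal array medians, and -0.46 for Gstp1 X02904cds_s_at with array weights. SHR against WKY in control arteries became -0.013 for Gstp1 (rc_AI012589_s_at) with equal medians, -0.10 for Cyp2j3 U39943_s_at with array weights, and -0.013 and -0.034 for Cyp2j3 U40004_s_at with quantile normalization and equal medians. SHR against WKY in collateral arteries became 0.20 for Sult1a1 L19998_at with array weights, -0.18 for Cyp2j3 U39943_s_at with quantile normalization, and 0.0015, 0.13 and 0.95 for Gstp1 (rc_AI012589_s_at) with a constant added, array weights and the mean over probe sets. Over all probe sets, 2 were called in SHR against WKY controls. The count was 14 under array weights, 7 with only the arrays compared and 6 without SHR control 4. It was 0 without the low-signal filter, with a filter at the 60th percentile, and without WKY control 1, 2 or 3. It was also 0 without SHR control 1 or 2, WKY collateral 1, 2 or 3, or SHR collateral 2. In SHR against WKY collaterals 0 were called (496 at an unadjusted p under 0.05), with 26 under array weights and 7 without SHR collateral 4.

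Samples with the same replicate number correlated between -0.07 and 0.31 in their deviations from the group means, not all over 0.1. The main fit therefore took no pairs, but this rule cannot exclude pairing. Between the vessel types of a strain, 9 of 14 arrays correlated best with their own number, among 3 or 4 candidates each. The count to be expected without pairing was not worked out, so whether the numbers mark pairs was not settled. With the replicate number as a block, SHR against WKY in control arteries was -0.046 for Cyp2j3 U39943_s_at and -0.10 for U40004_s_at, and 4 and 6 probe sets were called between the strains in control and collateral arteries. A signal near the array's background limits Cyp2j3 U39943_s_at, Gstt1 and Gstp1 X02904cds_s_at most.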
